A study of Homo sapiens with 8 samples.

Results

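The genes described here are 10 genes of the NRF2 pathway and of the thioredoxin and glutathione defences, out of 58302 genes in each of 2 deposited tables. They were chosen by name for their place in the pathway, with no threshold on a measured value, although earlier results of these data were known: NFE2L2, KEAP1, HMOX1, NQO1, GCLC, GCLM, TXN, TXNRD1, SRXN1 and PRDX1. Each symbol matched exactly 1 row in both tables. The cells were MOLM-13, an established human acute myeloid leukaemia line. They carried either a short hairpin against circMYBL2, a circular RNA of the MYBL2 gene (sh-circMYBL2), or a control hairpin (sh-NC). The series title places FLT3 translation at the centre of the study. For each hairpin there were 2 libraries of ribosome footprints (fragments of mRNA protected by ribosomes) and 2 libraries of input RNA. The labels give neither the promoter that drives the hairpins nor the number of clones. They do not say that libraries with the same hairpin were grown separately, so p-values reflect only how far these samples differ among themselves, and that spread may be technical. No row was matched to circMYBL2, and the loss of the circle was not checked. All libraries came from bulk cells, in which fewer cells of a type and less RNA per cell cannot be told apart.

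NRF2, the product of NFE2L2, is a transcription factor that is made all the time and normally destroyed at once. KEAP1 holds it and feeds it to a ubiquitin ligase built on CUL3. When oxidants or electrophiles modify cysteines of KEAP1, NRF2 escapes, enters the nucleus, pairs with a small MAF protein and binds the antioxidant response element (ARE) of its target genes. The other listed genes are all known targets of NRF2. GCLC and GCLM encode the catalytic and modifier subunits of the enzyme that limits glutathione synthesis. TXN, TXNRD1, PRDX1 and SRXN1 encode thioredoxin, the selenoprotein that reduces it, a peroxiredoxin that uses it to destroy peroxides, and the enzyme that repairs overoxidised peroxiredoxin. NQO1 reduces quinones and HMOX1 breaks down haem. In acute myeloid leukaemia the pathway is studied for its part in drug resistance.

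In RefSeq's annotation of GRCh38.p14, the assembly of the build named by the submitters, NFE2L2 lies at chr2:177230303-177264727 and KEAP1 at chr19:10486125-10503356. GCLC lies at chr6:53497341-53545101, GCLM at chr1:93885199-93909430 and TXNRD1 at chr12:104215779-104350307. TXN lies at chr9:110243810-110256507, PRDX1 at chr1:45511051-45522890 and NQO1 at chr16:69709401-69726560. HMOX1 lies at chr22:35381096-35394207 and SRXN1 at chr20:646615-653200. All 10 are protein-coding, and each value below is 1 number for the whole gene.

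The core of the ARE was looked for in RefSeq promoter windows of GRCh38.p14, which hold 250 bases before to 50 bases after each annotated start. The letters searched were TGAC, 3 bases of any kind and GCA, on both strands. Of the 10 genes 8 had a window, 11 windows in all, and HMOX1 and PRDX1 had none in that table. A match stood in 3 of the 11 windows, those of 1 start each of GCLM, TXNRD1 and KEAP1. Among all 35116 windows of this length 3.18% held one. The 3 matches, held by these 3 genes alone among the 8 searched, are shown with their surroundings. Each is given 5′ to 3′ on the strand of its gene, with the match in capitals, and all 3 read TGC, 3 bases and GTCA because the motif lies on the opposite strand.
GCLM (chr1:93909446-93909475, minus strand, match 35 to 26 bases before the start): ctacgatttcTGCTTAGTCAttgtcttcca
TXNRD1 (chr12:104286919-104286948, plus strand, match 103 to 94 bases before the start): agtggatttcTGCTTTGTCAttctgactct
KEAP1 (chr19:10502784-10502813, minus strand, match 32 to 23 bases before the start): cgcccggctcTGCTTAGTCAtggtgacctg

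Without its last letter the motif was found in 4 of the 11 windows and in 13.3% of all windows. It overlaps each of the 3 matches above and adds a further match in the KEAP1 window and others in the other TXNRD1 window, again within GCLM, TXNRD1 and KEAP1 alone among the 8 genes searched. The windows of NFE2L2, GCLC, TXN, NQO1 and SRXN1 held no match to either form, which says only that these letters are not in those windows.

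Depth differed far more between footprint libraries than between RNA libraries. Reads recovered from the tables came to 13649498 and 14107147 in sh-circMYBL2 input RNA, against 13504614 and 14603242 in sh-NC input RNA. Footprint libraries held 222845 reads (sh-circMYBL2 library a) and 715060 (library b), against 80157 (sh-NC library 1) and 300379 (sh-NC library 2). Of these, 32.8% and 12.2% lay on microRNA genes in sh-circMYBL2 libraries a and b, against 42.7% and 57.2% in sh-NC libraries 1 and 2. Reads on protein-coding genes were 125761 and 584185, against 33708 and 88701, so for such genes sh-NC library 2 was shallower than sh-circMYBL2 library a. The labels a and b stand for footprint columns that name the group but not the replicate. Numbers in those column names could stand for replicates or for hairpins, although the sample titles give replicates of the same hairpin. Most defining markers of other cell types were low. All 8 erythroid and all 5 megakaryocyte genes stayed under 1 FPKM in every RNA library. So did 4 of 6 lymphoid genes and 5 of 6 genes of adherent cells. The exception among the latter was PECAM1 (mean 10.7 FPKM in sh-circMYBL2 cells against 11.7 FPKM in sh-NC cells). Among lymphoid genes they were NCAM1 (2.08 against 2.53 FPKM) and CD3D, which passed 1 FPKM in sh-NC library 2 alone. The summed level of 9 myeloid markers ran from 949 to 991 FPKM in sh-circMYBL2 libraries and from 765 to 803 FPKM in sh-NC libraries, with CD14 alone under 1 FPKM throughout. Most of the sum was LYZ (mean 729 against 581 FPKM) and FLT3 (139 against 105 FPKM). Of the 8 markers tested 5 had a change above 0, while CD33 (13.8 against 15.3 FPKM) and MPO (2.30 against 3.19 FPKM) were lower in sh-circMYBL2 cells. The part of these differences in the results below was not tested.

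The members fell into 3 tiers of abundance. FPKM and RPKM are reads divided by gene length and by a scaling total of the library, so that genes can be compared per length. PRDX1 led in input RNA with 125 ± 6.56 FPKM in sh-circMYBL2 cells and 119 ± 3.08 FPKM in sh-NC cells (mean ± SD, n = 2 each, as for all means below), place 234 among the 12489 genes with a mean of at least 1 FPKM. TXN followed with 36.8 ± 2.67 FPKM in sh-circMYBL2 cells and 35.2 ± 0.261 FPKM in sh-NC cells, and TXNRD1 with 27.7 ± 0.832 and 24.2 ± 0.364 FPKM. The middle tier was NFE2L2, KEAP1 and GCLC, with group means from 4.33 to 12.9 FPKM. NQO1 and GCLM lay between 1.15 and 1.76 FPKM. The ranges of neighbours in this order did not overlap within either hairpin, except NQO1 and GCLM in sh-NC cells.

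HMOX1 and SRXN1 were at the edge of detection in every library. HMOX1 had 0.0599 and 0.115 FPKM in sh-circMYBL2 cells (2 and 4 reads), against 0.0938 and 0.116 FPKM in sh-NC cells (3 and 4 reads), and these values overlapped. SRXN1 had 0 reads in both sh-circMYBL2 RNA libraries, against 1 and 0 reads in the sh-NC libraries. A count of 0 allows up to 3 reads, so a difference in SRXN1 was not detectable at this depth. The only footprint read on either gene was 1 HMOX1 read in sh-circMYBL2 library b. Neither gene reached the minimum mean of 1, and only the other 8 members were tested.

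**Figure D1:**
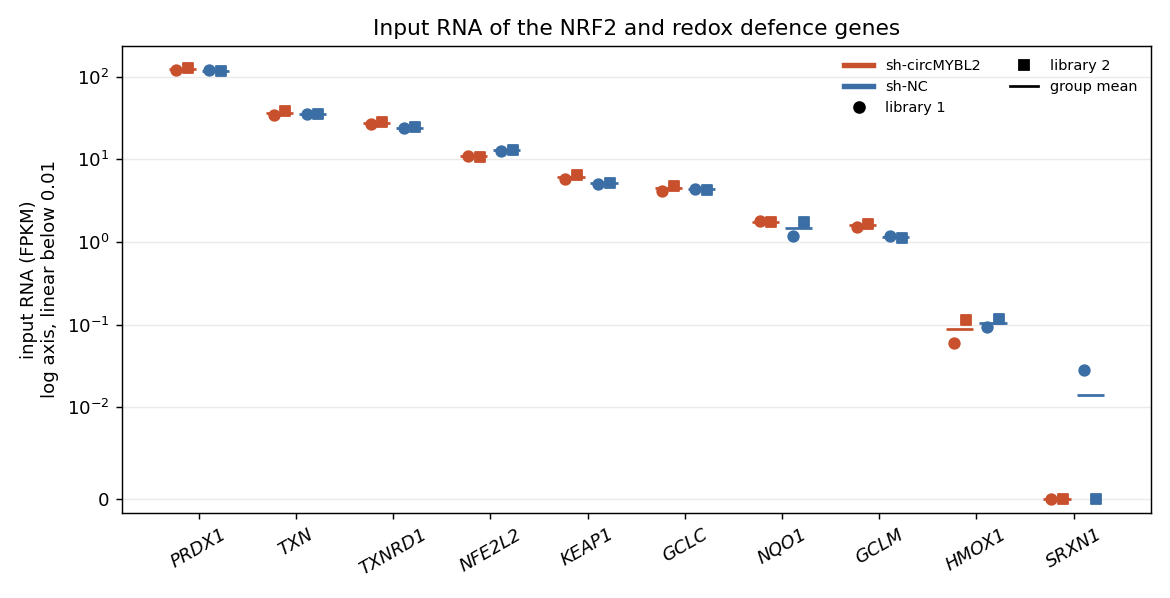
Input RNA of the 10 genes in each library, in FPKM on a log axis that is linear below 0.01. Circles are library 1, squares library 2 and lines group means (n = 2). PRDX1 lies above 100 FPKM in all 4 libraries, and HMOX1 and SRXN1 below 0.2 FPKM; for NFE2L2 both sh-circMYBL2 points lie below both sh-NC points, and for TXNRD1, KEAP1 and GCLM above them.

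In input RNA the hairpins differed little for these genes, and no member passed the test. Each gene was compared with limma on log2(FPKM + 1), with Benjamini-Hochberg adjustment over all genes tested and a threshold of 0.05. Of the 8 members tested 0 were called, against 8.88% of all 12489 genes. At an unadjusted p under 0.05 there were 3 members, NFE2L2, TXNRD1 and KEAP1, against 29.2% of all genes. The groups did not overlap for 5 of the 8 members, against 60.7% of all genes, so the members' shares were near the background. The median change of the 8 members was 0.12 on the log2 scale, beside 0.00 (rounded from -0.0037) over all genes tested, and 7 of the 8 were above 0.

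The sensor and its factor differed in opposite directions. NFE2L2 had 11.04 and 10.68 FPKM in sh-circMYBL2 cells, against 12.7 and 13.2 FPKM in sh-NC cells. Both sh-circMYBL2 libraries were lower, without overlap, and the log2 change was -0.23 (SE 0.05, 95% interval -0.35 to -0.11), with adjusted p = 0.0598 in limma. KEAP1 had 5.86 and 6.52 FPKM in sh-circMYBL2 cells, against 5.08 and 5.17 FPKM in sh-NC cells. Here both sh-circMYBL2 libraries were higher, and the log2 change was 0.23 (SE 0.07, interval 0.04 to 0.42), with adjusted p = 0.122 in limma. Neither difference passed the threshold.

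The subunits of the glutathione-making enzyme did not show the same values. GCLM, the modifier subunit, had 1.502 and 1.664 FPKM in sh-circMYBL2 cells, against 1.19 and 1.10 FPKM in sh-NC cells. The groups did not overlap; the log2 change was 0.27 (SE 0.10, interval -0.02 to 0.55), with adjusted p = 0.193 in limma, on 244 reads in sh-circMYBL2 and 172 in sh-NC libraries. GCLC, the catalytic subunit, had 4.16 and 4.74 FPKM in sh-circMYBL2 cells, against 4.41 and 4.25 FPKM in sh-NC cells. These values overlapped, with a log2 change of 0.03 (SE 0.08, interval -0.19 to 0.24), so that a change of more than 0.24 in either direction lay outside the interval.

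Of the members in the thioredoxin system, TXNRD1 alone had groups without overlap in RNA, as did 60.7% of all genes tested. It did not pass the threshold. TXNRD1, thioredoxin reductase 1, had 27.1 and 28.3 FPKM in sh-circMYBL2 cells, against 24.0 and 24.5 FPKM in sh-NC cells. The groups stood apart on 2140 to 2757 reads a library, and the log2 change was 0.19 (SE 0.04, interval 0.08 to 0.29), with adjusted p = 0.0662 in limma. TXN, its substrate, had 34.9 and 38.7 FPKM in sh-circMYBL2 cells, against 35.4 and 35.0 FPKM in sh-NC cells. PRDX1, the peroxidase that TXN reduces, had 120 and 130 FPKM in sh-circMYBL2 cells, against 121 and 116 FPKM in sh-NC cells. Both overlapped between the hairpins, with log2 changes of 0.06 (interval -0.10 to 0.22) for TXN and 0.07 (interval -0.06 to 0.21) for PRDX1.

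NQO1, the quinone reductase, had 1.77 and 1.76 FPKM in sh-circMYBL2 cells, against 1.18 and 1.75 FPKM in sh-NC cells. The second sh-NC library was level with the sh-circMYBL2 libraries. The log2 change of 0.18 (SE 0.15, interval -0.23 to 0.58, adjusted p = 0.491 in limma) was 0.34 without sh-NC library 2 and 0.01 without sh-NC library 1.

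The genes with an ARE match in a promoter window, GCLM, KEAP1 and TXNRD1, had the highest RNA log2 changes of the 8 members (0.27, 0.23 and 0.19). Of the members with a window and no match, NQO1 was at 0.18, TXN at 0.06, GCLC at 0.03 and NFE2L2 at -0.23. This order was seen after the values were known, describes 7 tested genes and has no test. With a pseudocount of 0.1 NQO1 (0.28) stood above KEAP1 (0.27) and TXNRD1 (0.19). By voom on recovered reads NQO1 (0.282) likewise stood above KEAP1 (0.271) and TXNRD1 (0.193). The RNA calls depended on the test: voom on recovered reads called 4 members, NFE2L2 lower (adjusted p = 0.00140) and TXNRD1, GCLM and KEAP1 higher (adjusted p = 0.00100, 0.0357 and 0.0427), against 26.1% of all genes by that method.

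In the footprints PRDX1, TXN and TXNRD1 again led in sh-circMYBL2 cells, while in sh-NC cells the ranges of TXN, KEAP1 and TXNRD1 overlapped below PRDX1. No difference between hairpins passed, in a fit that did not call even the largest changes put into simulated footprint libraries. Of 8 members 0 were called by limma, against 0% of all 9431 genes tested; 0 members were under an unadjusted p of 0.05, against 12.9% of all genes, and voom called 0 of 8, against 0.594% (0.0636% higher and 0.53% lower). The groups did not overlap for 3 of 8 members (NFE2L2, KEAP1 and TXN), against 41.6% of all genes. The median footprint change of the members was 0.59, beside 0.56 over all genes tested. That general shift was -0.01 among the 4438 genes with a read in every footprint library and 0.07 after quantile normalization, and the values below are to be read against it.

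NFE2L2 footprints were 10.3 and 13.5 RPKM in sh-circMYBL2 libraries a and b (16 and 90 reads), against 0 and 6.31 RPKM in sh-NC libraries 1 and 2 (0 and 7 reads). Both sh-circMYBL2 values lay above both sh-NC values, the reverse of the order in RNA. The log2 change was 2.25 with an SE of 1.18 (interval -0.98 to 5.47, adjusted p = 0.562 in limma). It was 0.81 without sh-NC library 1, the shallowest library, and 3.68 without sh-NC library 2. A count of 0 allows up to 3 reads, and sh-NC library 1 held few reads for any gene, with at least 10 on 889 protein-coding genes; the part of depth in this difference was not tested. With the reads of each hairpin added, the scaled ratio of sh-circMYBL2 to sh-NC was 2.96 (95% interval 1.39 to 7.53, for counting error only, 106 against 7 reads).

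KEAP1 went the other way. Its footprints were 23.6 and 14.8 RPKM in sh-circMYBL2 libraries (23 and 62 reads), against 35.6 and 32.9 RPKM in sh-NC libraries (11 and 23 reads). Both sh-circMYBL2 values were lower, where both RNA values were higher. The log2 change was -0.84 (SE 0.45, interval -2.08 to 0.41, adjusted p = 0.578 in limma) and stayed below 0, between -1.16 and -0.52, with any 1 of the 4 footprint libraries left out. The scaled read ratio was 0.488 (counting interval 0.324 to 0.749, 85 against 34 reads).

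PRDX1 had 76.1 and 110 RPKM of footprints in sh-circMYBL2 libraries (30 and 186 reads), against 160 and 70.8 RPKM in sh-NC libraries (20 reads each). TXN had 60.9 and 56.6 RPKM in sh-circMYBL2 libraries (18 and 72 reads), against 53.2 and 28.3 RPKM in sh-NC libraries (5 and 6 reads). TXNRD1 had 34.5 and 39.5 RPKM in sh-circMYBL2 libraries (60 and 295 reads), against 9.06 and 47.4 RPKM in sh-NC libraries (5 and 59 reads). For PRDX1 and TXNRD1 the sh-NC libraries lay on either side of the sh-circMYBL2 libraries, so the spread within sh-NC was larger than the difference between hairpins. The scaled read ratios were 1.054 for PRDX1 (counting interval 0.750 to 1.52), 1.60 for TXN (0.851 to 3.31) and 1.08 for TXNRD1 (0.828 to 1.44), and each interval holds 1.

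GCLC had 4.56 and 7.004 RPKM of footprints in sh-circMYBL2 libraries (10 and 66 reads), against 1.44 and 7.002 RPKM in sh-NC libraries (1 and 11 reads). GCLM had 7.84 and 5.14 RPKM in sh-circMYBL2 libraries (11 and 31 reads), against 0 and 6.96 RPKM in sh-NC libraries (0 and 7 reads). NQO1 had 0 and 1.38 RPKM in sh-circMYBL2 libraries (0 and 5 reads), against 0 and 3.31 RPKM in sh-NC libraries (0 and 2 reads). All 3 overlapped between the hairpins. The log2 changes were 0.60 for GCLC, 1.38 for GCLM, 0.78 for TXNRD1, -0.22 for PRDX1, 0.58 for TXN and -0.43 for NQO1, with adjusted p from 0.637 to 0.882 in limma. Without sh-NC library 1 the first 4 turned direction, to -0.26, -0.11, -0.35 and 0.36. Without sh-circMYBL2 library a NQO1 (0.20) and PRDX1 (0.044) turned.

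**Figure D2:**
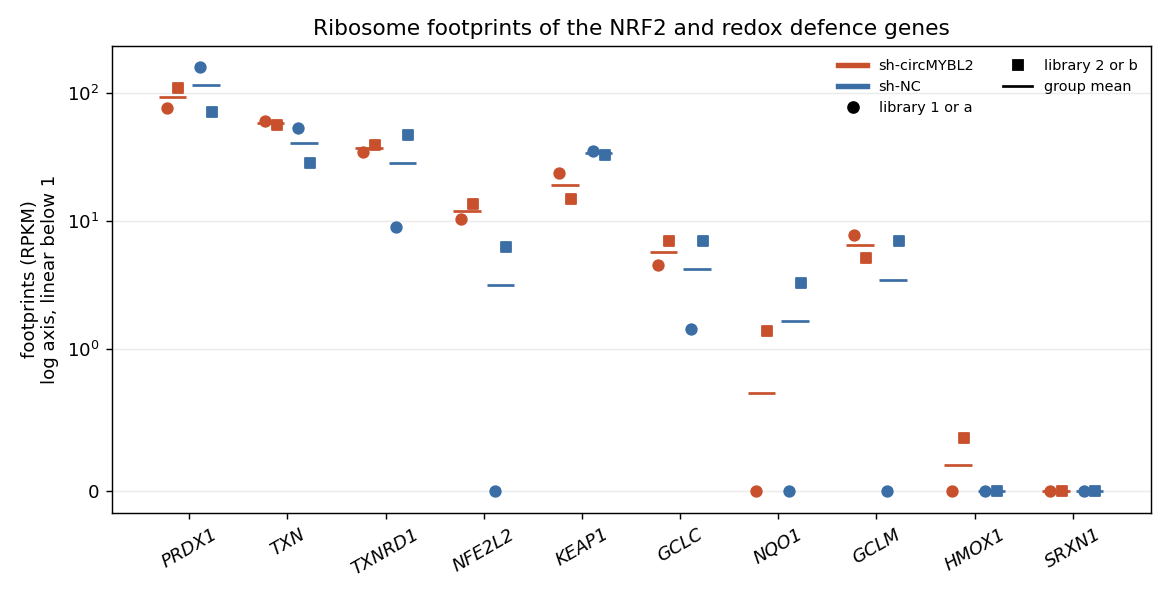
Ribosome footprints of the 10 genes in each library, in RPKM on a log axis that is linear below 1. Circles are sh-circMYBL2 library a and sh-NC library 1, squares sh-circMYBL2 library b and sh-NC library 2, and lines group means (n = 2). The sh-NC circles stand apart from the sh-NC squares for TXNRD1, NFE2L2, GCLC, GCLM and PRDX1, and sh-NC library 1 is at 0 for NFE2L2, GCLM and NQO1.

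The order of the members in footprints differed from that in RNA. In sh-NC cells the mean of KEAP1 also stood above that of TXNRD1, and that of NFE2L2 below those of GCLC and GCLM, but these ranges overlapped. KEAP1 stood below NFE2L2 in RNA with both hairpins (6.19 against 10.9 FPKM in sh-circMYBL2 cells and 5.13 against 12.9 FPKM in sh-NC cells). In footprints it stood above NFE2L2 (19.2 against 11.9 RPKM in sh-circMYBL2 cells and 34.2 against 3.15 RPKM in sh-NC cells), without overlap within either hairpin. The tables were scaled separately, and 1 length per gene was recovered from both together (5979 bases for NFE2L2 and 3761 for KEAP1). In footprint reads NFE2L2 stood below KEAP1 in sh-circMYBL2 library a (16 against 23) and in sh-NC cells (7 against 34). It stood above KEAP1 in sh-circMYBL2 library b (90 against 62), so the order there depended on division by the length of the whole gene. GCLM came out level with GCLC in footprint RPKM (6.49 against 5.78 in sh-circMYBL2 cells, 3.48 against 4.22 in sh-NC cells, overlapping), although its RNA was lower in all 4 libraries. In added footprint reads GCLM stood below GCLC (42 against 76 with sh-circMYBL2 and 7 against 12 with sh-NC). In sh-circMYBL2 library a it had 11 reads against 10. That level order too depended on division by the length of the whole gene (5420 bases for GCLM and 8463 for GCLC).

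As a share of protein-coding reads, which does not depend on the authors' scaling, the 10 genes together took 0.134% and 0.138% of footprint reads in sh-circMYBL2 libraries, against 0.125% and 0.152% in sh-NC libraries. The exact (Clopper-Pearson) 95% intervals, for counting error only, were 0.114% to 0.155% and 0.129% to 0.148% with sh-circMYBL2, against 0.0898% to 0.168% and 0.128% to 0.180% with sh-NC, and they overlap. In input RNA the share was 0.0691% and 0.0736% with sh-circMYBL2, against 0.0663% and 0.0658% with sh-NC. The RNA intervals were 0.0676% to 0.0707% and 0.0720% to 0.0752% with sh-circMYBL2, against 0.0647% to 0.0678% and 0.0644% to 0.0673% with sh-NC, so that sh-circMYBL2 library 2 lay above both sh-NC libraries and library 1 overlapped sh-NC library 1. PRDX1, TXN and TXNRD1 held 0.0516% and 0.0552% of protein-coding RNA reads in sh-circMYBL2 libraries and 0.0483% and 0.0476% in sh-NC libraries. For these 3 genes the sh-circMYBL2 intervals (0.0503% to 0.0530% and 0.0539% to 0.0566%) lay above the sh-NC intervals (0.0470% to 0.0497% and 0.0464% to 0.0489%), for counting error only and with no test over libraries.

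Translational efficiency, the footprint change beyond the RNA change, was tested as the interaction of hairpin and assay over all 8 libraries. Of 8 members 0 were called, against 5.31% of 8260 genes (5.05% higher and 0.266% lower). By voom 0 were called, against 0.157% (0.0121% higher and 0.145% lower). KEAP1 alone had an unadjusted p under 0.05, against 19.6% of all genes, with a change of -1.07 (SE 0.40, interval -2.05 to -0.08, adjusted p = 0.223 in limma). NFE2L2 had the largest change, 2.48, and a wide interval (SE 1.25, -0.61 to 5.56, adjusted p = 0.362). The other 6 lay between -0.60 (NQO1) and 1.12 (GCLM), with adjusted p from 0.611 to 0.831, and the median of the 8 was 0.55, beside 0.57 over all genes.

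The efficiency values of the members hung on single footprint libraries. Without sh-NC library 1, NFE2L2 (1.04, adjusted p = 0.0260) and TXN (0.97, adjusted p = 0.0114) passed in limma. Without sh-NC library 2, NFE2L2 (3.91), GCLM (2.61), TXNRD1 (1.73), GCLC (1.42) and KEAP1 (-1.12) passed, with adjusted p from 0.000585 to 0.0493. Without sh-circMYBL2 library a, KEAP1 passed (-1.39, adjusted p = 0.0468). In these fits a hairpin has 1 footprint library, whose spread is assumed to be that of the others, and calls were common over all genes: 2186 higher and 934 lower without sh-NC library 1, 3723 and 1230 without sh-NC library 2, and 744 and 102 of 7960 genes without sh-circMYBL2 library a.

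**Figure D3:**
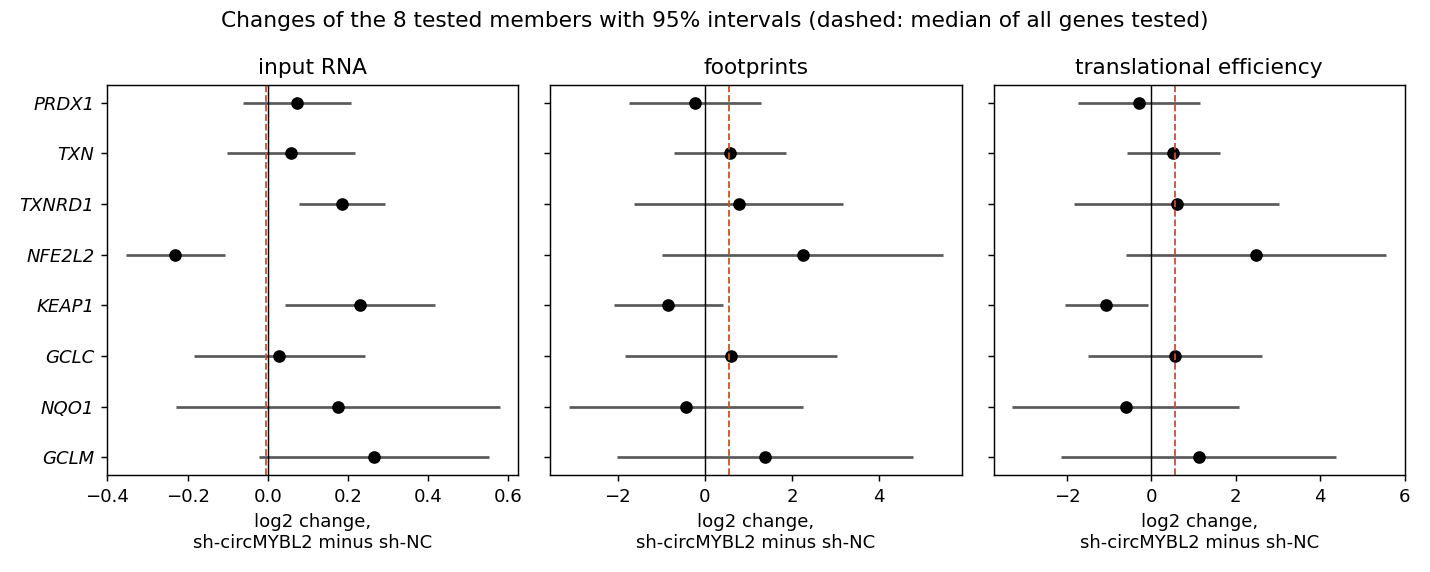
Log2 changes of the 8 tested members, sh-circMYBL2 minus sh-NC, on the log2(value + 1) scale, for input RNA, footprints and translational efficiency. Points are estimates, bars 95% intervals of limma and dashed lines the median over all genes tested (0.00, 0.56 and 0.57). The horizontal scales differ: RNA intervals of NFE2L2, TXNRD1 and KEAP1 leave out 0, and among the others only the efficiency interval of KEAP1 does.

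Around the members, 136 other redox genes in 9 lists were read from the same fits. In input RNA 102 were tested, of which 6 rose and 6 fell, beside 4.92% and 3.96% of all genes, with a median change of 0.03. The lists were drawn up with earlier results of these data known. With a single RNA library removed, whichever it was, limma called 0 of all genes, these 12 included, and 2610 to 2828 genes had an unadjusted p under 0.05.

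Of 15 tested partners and regulators of NRF2, 0 rose and 1 fell. NFE2L1, the related factor that induces proteasome genes, had 20.7 and 21.0 FPKM in sh-circMYBL2 cells, against 30.5 and 31.2 FPKM in sh-NC cells, a change of -0.55 (SE 0.03, adjusted p = 0.0109 in limma). CUL3, the ligase scaffold that KEAP1 uses, overlapped between hairpins (0.05, adjusted p = 0.540). Of 11 other NRF2 target genes, 2 fell and 0 rose. SLC7A11, which imports cystine for glutathione and is also a target of ATF4, was at 4.36 and 4.73 FPKM in sh-circMYBL2 cells, against 11.4 FPKM in each sh-NC library (-1.17, adjusted p = 0.00830). FTH1, the ferritin heavy chain, had 170 and 169 FPKM in sh-circMYBL2 cells, against 189 FPKM in each sh-NC library (-0.16, adjusted p = 0.0491). The FTH1 call sat at the threshold and was lost with a pseudocount of 0.1 or 5, with no filter and with scaling to protein-coding reads, but not by voom.

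Of 21 glutathione enzymes tested, 0 passed. GPX4, which reduces lipid peroxides, was at 0.26 (adjusted p = 0.0871), and glutathione reductase, GSR, at -0.02 (adjusted p = 0.773). Of 16 genes of the thioredoxin and peroxiredoxin system 1 rose. PRDX2, a cytosolic peroxiredoxin like PRDX1, had 9.57 and 10.7 FPKM in sh-circMYBL2 cells, against 6.32 and 6.64 FPKM in sh-NC cells (0.57, SE 0.07, adjusted p = 0.0270). TXNIP, which binds and inhibits thioredoxin, was at 0.07 (adjusted p = 0.282). Of 5 superoxide dismutase and catalase genes 1 rose: SOD2, the mitochondrial dismutase, had 7.85 and 8.12 FPKM in sh-circMYBL2 cells, against 5.52 and 5.44 FPKM in sh-NC cells (0.47, adjusted p = 0.0216). Cytosolic SOD1 was at 0.12 (adjusted p = 0.121). In footprints the scaled read ratio was 0.602 for PRDX2 (counting interval 0.375 to 0.998) and 2.25 for SOD2 (1.47 to 3.61).

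NADPH feeds both the thioredoxin and the glutathione system, and its supply held the most calls: of 13 genes tested 4 rose and 2 fell. TKT, transketolase of the pentose phosphate pathway, had 30.7 and 32.9 FPKM in sh-circMYBL2 cells, against 16.5 and 17.2 FPKM in sh-NC cells (0.88, SE 0.05, adjusted p = 0.0104). IDH2, the mitochondrial isocitrate dehydrogenase, rose by 0.70 (adjusted p = 0.0472) and MTHFD1, of folate metabolism, by 0.43 (adjusted p = 0.0170). MTHFD2, its mitochondrial relative, had 32.7 and 30.8 FPKM in sh-circMYBL2 cells, against 53.1 and 50.8 FPKM in sh-NC cells (-0.69, adjusted p = 0.0117). The remaining calls, named after their values were seen, were TALDO1, a pentose phosphate enzyme that rose by 0.25, and IDH1, the cytosolic isocitrate dehydrogenase, at -0.19 (adjusted p = 0.0402 each). In footprints, where no gene was called, the order was not the same. The scaled read ratios were 0.532 for TKT (counting interval 0.408 to 0.701), 0.488 for TALDO1 (0.344 to 0.703) and 0.665 for IDH2 (0.458 to 0.987). Those of MTHFD1 (1.09, 0.689 to 1.81), MTHFD2 (1.46, 0.942 to 2.36) and IDH1 (1.12, 0.628 to 2.13) had intervals that hold 1.

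Of 2 tested genes of haem breakdown 0 passed: HMOX2, the constitutive haem oxygenase, had 9.91 and 10.3 FPKM in sh-circMYBL2 cells, against 8.66 and 8.59 FPKM in sh-NC cells (0.21, adjusted p = 0.0719), and BLVRB was at 0.04 (adjusted p = 0.849). HMOX2 thus stood far above HMOX1 in every library. Of 8 genes of the phagocyte oxidase and MPO 1 fell: CYBB, the catalytic subunit, had 10.8 and 11.2 FPKM in sh-circMYBL2 cells, against 14.8 and 14.5 FPKM in sh-NC cells (-0.38, adjusted p = 0.0227). RAC2 was at -0.18 (adjusted p = 0.0949). Of 14 selenoproteins and genes of selenoprotein synthesis 0 passed, with SELENOF at 0.01 (adjusted p = 0.863) and SEPHS2 at 0.14 (adjusted p = 0.0820).

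**Figure D4:**
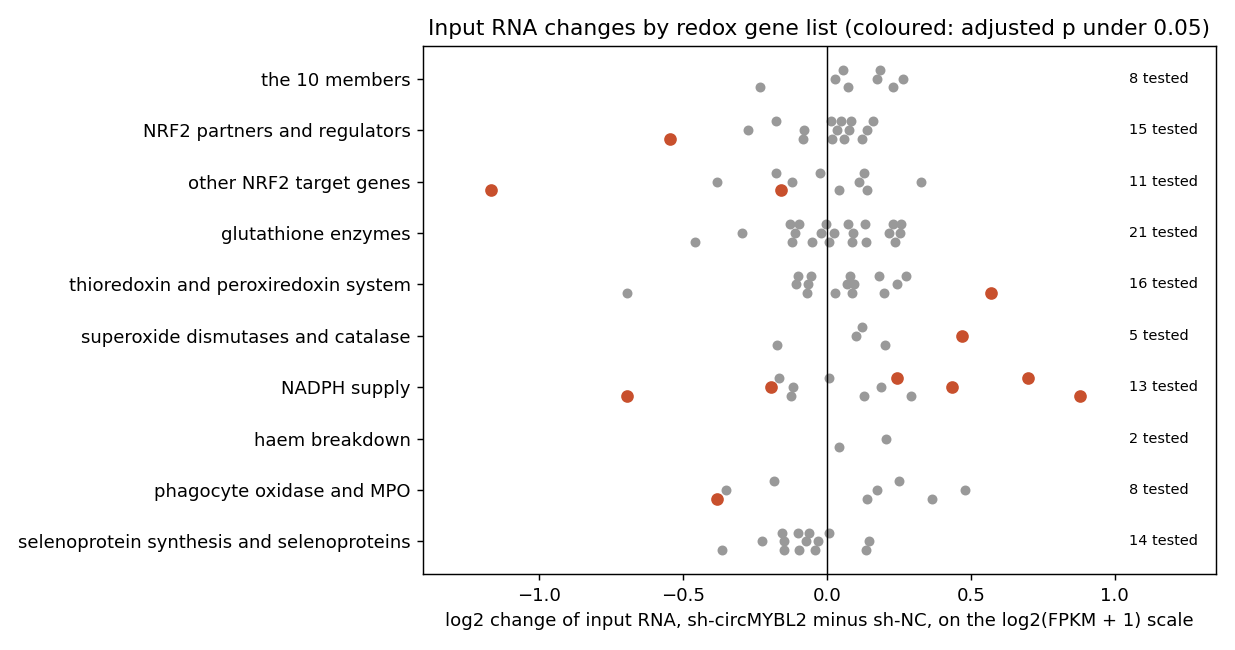
Log2 change of input RNA, sh-circMYBL2 minus sh-NC, for each tested gene of the members and of the 9 other redox lists; vertical offsets only separate points. Coloured points passed the adjusted threshold of 0.05 in limma. None of the 8 tested members is coloured, NADPH supply holds 6 coloured points, and the lowest point is SLC7A11.

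In footprints 0 of the 99 other redox genes tested were called. In translational efficiency 5 of 92 passed in limma, beside 5.05% of all genes called higher: PRDX4, a peroxiredoxin of the endoplasmic reticulum, GPX7, PALB2, the selenocysteine enzyme SEPSECS and the methionine sulfoxide reductase MSRA (adjusted p from 0.0170 to 0.0478). All 5 had 0 footprint reads in both sh-NC libraries, against 50 reads for PRDX4, 41 for PALB2, 26 for SEPSECS, 25 for MSRA and 5 for GPX7 over the sh-circMYBL2 libraries. They passed the filter on low values through sh-circMYBL2 alone and could only come out higher, so the count and its direction are a description. Scaled to depth, PRDX4 reads were 3.25 times what 3 reads in both sh-NC libraries together would give. The same ratio was 2.67 for PALB2, 1.69 for SEPSECS, 1.63 for MSRA and 0.325 for GPX7. These ratios take the sh-circMYBL2 reads as exact and set the sh-NC count of 0 at 3 reads. They describe genes named because they passed, and are no test of a rise. By voom 0 of these 5 passed (adjusted p from 0.200 to 0.837), and 0 passed with separate variances for the assays or with a single RNA library removed.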

How the data were processed

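Groups were taken from the sample titles. Per the submitters' processing notes the authors' tools included featureCounts, HISAT2, Bowtie, cutadapt and DESeq2, and the build was hg38; their roles and versions and the strand setting are not stated there. The deposited footprint table holds RPKM values and the deposited input RNA table FPKM values, both scaled by the authors to a total for each library. In both, values times gene length were whole multiples of 1 step per library (98.6% to 99.4% of microRNA values within 0.02 reads), which gave the reads behind each value. Depths, intervals and voom used these reads, and the main tests did not. The pseudogenes named after TXN and PRDX1 held at most 3 reads in any library. RefSeq spans of EID3 and RPL18AP3 overlap TXNRD1 and that of MMACHC overlaps PRDX1, so reads there are not separated with certainty.

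The log2(value + 1) of each table was tested separately (limma 3.58.1, R 4.3.3, eBayes with trend, two-sided), keeping genes whose mean reached 1. This scale understates changes of low genes. Translational efficiency was the interaction in 1 fit of both tables, with 1 variance for both assays, although footprints varied more. P-values were adjusted over all genes of a comparison. An exact permutation of 2 against 2 libraries cannot go below p = 0.333. The limma fits of input RNA and of footprints were tested on simulated libraries, and the interaction and voom were not. In that simulation the footprint fit did not call even the largest changes put in. The absence of calls in footprints therefore says little about whether a gene changed. Intervals are 95%, and those on reads cover counting error only. Members and lists were chosen with earlier results of these data known. The naming rule took all members and, per list, up to 4 called genes with the largest RNA change, or the most abundant up to 2, and any gene called in footprints or efficiency.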

Additional observations from a re-analysis of the deposited data

How the results depend on the processing

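Alternatives were pseudocounts of 0.1 and 5, no filter on low values, quantile normalization, voom on recovered reads, each library left out and, chosen after seeing the data, scaling to protein-coding reads. Of the 8 members tested, RNA calls were 0 as reported, 4 by voom and 0 with the replicate number as a block, under which the 12 other redox RNA calls were 0, as were those of all genes (3373 at an unadjusted p under 0.05). Replicate numbers share no stated culture, and deviations of equal numbers correlated with r = 0.0265 across 12489 genes. Those 12 calls were 3 with no filter, beside 56 higher and 41 lower of all 29835 genes tested. By voom they were 39, beside 26.1% of all genes, and they were lost with any library left out. No paired analysis was possible for footprints and efficiency because the sh-circMYBL2 footprint columns carry no replicate number. Other redox footprint calls varied with the library left out. In efficiency, with a library left out member calls ran from 0 to 5 and other redox calls from 0 to 52. The highest of both came without sh-NC library 2, where that hairpin has 1 footprint library. Calls were most common there over all genes too, as given above, so these counts do not set redox genes apart. Other redox efficiency calls, 5 as reported, were 10 with a pseudocount of 0.1, beside 812 higher and 41 lower of all 8260 genes. They were 0 with a pseudocount of 5, quantile normalization, voom or separate variances. The cause was not tested.

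Directions that turned with a library left out had these ranges: in RNA GCLC -0.047 to 0.10, TXN -0.014 to 0.13, GSR -0.056 to 0.015, BLVRB -0.055 to 0.14 and SELENOF -0.011 to 0.030; in footprints NQO1 -1.48 to 0.20, GCLC -0.26 to 1.45, GCLM -0.11 to 2.88, TXNRD1 -0.35 to 1.92 and PRDX1 -0.80 to 0.36; in efficiency NQO1 -1.66 to 0.022, GCLC -0.29 to 1.42, GCLM -0.38 to 2.61, TXNRD1 -0.54 to 1.73 and PRDX1 -0.87 to 0.29. Quantile normalization turned GCLC (footprints -0.33, efficiency -0.37) and PRDX1 (0.49 and 0.19), and scaling to protein-coding reads turned GSR in RNA (0.0091). In RNA the changes of NFE2L2 (-0.26 to -0.18), KEAP1 (0.14 to 0.30), TXNRD1 (0.16 to 0.22), GCLM (0.099 to 0.46), NQO1 (0.0066 to 0.34) and PRDX1 (0.020 to 0.13) kept their direction under every alternative run. Footprint libraries held 80157 to 715060 reads, and what share of their spread comes from depth was not tested.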
